A study of Mus musculus with 4 samples.

Results

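The genes described here encode the enzymes that cut and rejoin antigen receptor gene segments. They are 10 named genes out of 19297 measured in mouse spleen, and 9 of the 10 had a probe set that the platform annotation pairs with that gene alone. Each of the 9 had 1 such probe set. Dclre1c, which encodes the hairpin-opening nuclease Artemis, had none and was not analysed here. Expression was measured in total RNA of whole spleens with Affymetrix whole-transcript arrays, 1 array per mouse, and the series compares leukaemic with wild type spleen. The 2 mice labelled B cell leukemic had the genotype RBP-J flox/flox;Ren1dcre/cre, with floxed alleles of the Notch pathway gene RBP-J and cre at both alleles of the renin gene Ren1d. Replicate 1 was a female of 107 days with a spleen of 0.7 g, and replicate 2 a male of 93 days with a spleen of 0.47 g. The 2 wild type mice, RBP-J flox/flox;Ren1d+/+, carried the same floxed alleles without cre. They were females of 80 and 81 days with spleens of 0.12 g and 0.16 g. All 4 had the 129Sv background. Every leukaemic mouse carried cre, was older and had a heavier spleen than every wild type mouse, and the parts of these factors cannot be told apart from that of the disease. Likewise, in whole spleen more cells of a type and more RNA per cell cannot be told apart either.

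In developing B and T lymphocytes, Rag1 and Rag2 form the recombinase that cuts DNA beside V, D and J gene segments. Dntt, terminal deoxynucleotidyl transferase, adds untemplated nucleotides at the junctions. The breaks are closed by non-homologous end joining, which works in nearly every cell type: Xrcc6 and Xrcc5 (Ku70 and Ku80) clamp the ends, the kinase Prkdc and Artemis process them, and Lig4 seals them together with the scaffold proteins Xrcc4 and Nhej1. Mature resting lymphocytes normally have the recombinase switched off.

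Rag1 and Rag2 lie next to each other on mouse chromosome 2 and point towards each other, while Dntt is on chromosome 19. Their promoter windows are shown because both Rag genes rose, and that of Xrcc6 because it rose as well and is a general joining gene. Each window holds 250 bases before and 50 bases after the RefSeq start (GRCm38.p6), 5′ to 3′ on the gene's own strand: chr2:101649483-101649782 on the minus strand for Rag1, chr2:101624462-101624761 on the plus strand for Rag2, chr19:41029025-41029324 on the plus strand for Dntt and chr15:82016119-82016418 on the plus strand for Xrcc6. Capitals mark E boxes (CANNTG), the letters that basic helix-loop-helix factors such as E2A recognise.
Rag1: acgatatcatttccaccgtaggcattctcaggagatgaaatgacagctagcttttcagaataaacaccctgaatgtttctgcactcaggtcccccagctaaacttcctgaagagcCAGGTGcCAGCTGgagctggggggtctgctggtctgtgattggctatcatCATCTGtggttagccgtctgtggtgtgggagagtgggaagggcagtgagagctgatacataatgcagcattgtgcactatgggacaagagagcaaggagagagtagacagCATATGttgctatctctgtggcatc
Rag2: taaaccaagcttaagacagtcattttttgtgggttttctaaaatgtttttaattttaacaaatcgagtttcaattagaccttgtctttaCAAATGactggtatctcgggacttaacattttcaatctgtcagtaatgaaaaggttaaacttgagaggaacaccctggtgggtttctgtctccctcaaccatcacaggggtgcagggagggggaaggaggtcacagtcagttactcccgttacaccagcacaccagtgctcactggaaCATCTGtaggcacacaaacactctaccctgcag
Dntt: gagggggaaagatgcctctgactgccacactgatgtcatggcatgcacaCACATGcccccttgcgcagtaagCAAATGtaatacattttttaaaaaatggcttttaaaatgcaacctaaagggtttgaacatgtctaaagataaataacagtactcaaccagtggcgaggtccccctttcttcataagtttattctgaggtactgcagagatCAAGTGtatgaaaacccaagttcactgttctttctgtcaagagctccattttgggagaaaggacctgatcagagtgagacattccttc
Xrcc6: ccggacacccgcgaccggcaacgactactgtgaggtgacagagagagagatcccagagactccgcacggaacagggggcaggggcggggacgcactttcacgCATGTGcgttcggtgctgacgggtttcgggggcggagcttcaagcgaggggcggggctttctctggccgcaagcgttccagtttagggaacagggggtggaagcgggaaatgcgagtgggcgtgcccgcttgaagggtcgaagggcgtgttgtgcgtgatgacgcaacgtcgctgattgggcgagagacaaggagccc
E boxes numbered 4 in the Rag1 window, 2 in that of Rag2, 3 in that of Dntt and 1 in that of Xrcc6. The motif reads the same on both strands and stood in 72.3% of all 32851 windows of this length, so its presence sets none of these promoters apart. The CCAAT box, searched on both strands, stood at -97 in the Rag1 window and at 28 in the Xrcc6 window, both on the minus strand, and in 37.4% of all windows. The forkhead core TGTTT was found 2 times each in the Rag1 and Rag2 windows and 0 times in those of Dntt and Xrcc6, against 50.5% of all windows with at least 1 match. The Ikaros core GGGAA, each match of which also counts for the Ets core GGAA, had 1 match each in the Rag1, Rag2 and Dntt windows and 2 in that of Xrcc6 (62.7% of all windows held GGGAA, and 96.0% GGAA), and the TATA-like letters TATAA had 0 matches in all 4 (24.9% of all windows).

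At their starts the lymphoid genes had fewer CpG pairs than any of the general genes matched, while the shares of G and C overlapped. No test was made of this. The windows of Rag1, Rag2 and Dntt had 50.0%, 43.0% and 42.3% G and C, with 3, 3 and 2 CpG pairs. Windows of 6 of the general joining genes (7 windows, since Lig4 has a pair of starts) had 48.0% to 67.3% G and C and 9 to 31 CpG pairs. The median of all windows was 52.7% and 7 CpG pairs.

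Of the 9 measured genes, 4 rose in leukaemic spleen, 0 fell and 5 did not pass the test. The 4 that rose were Rag1 and Rag2 of the lymphoid genes and Lig4 and Xrcc6 of the joining factors. Dntt was high in 1 of the 2 leukaemic spleens. Genes were called at a limma adjusted p under 0.05 over all 19297 genes, and by that rule 1.43% of all genes were higher and 1.03% lower. Both leukaemic arrays lay above both wild type arrays for 5 of the 9 genes, against 23.0% of all genes, and both lay below for 0, against 26.2% of all genes. The median log2 difference was 0.78 over the 9 genes and -0.032 over all genes.

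**Figure D1:**
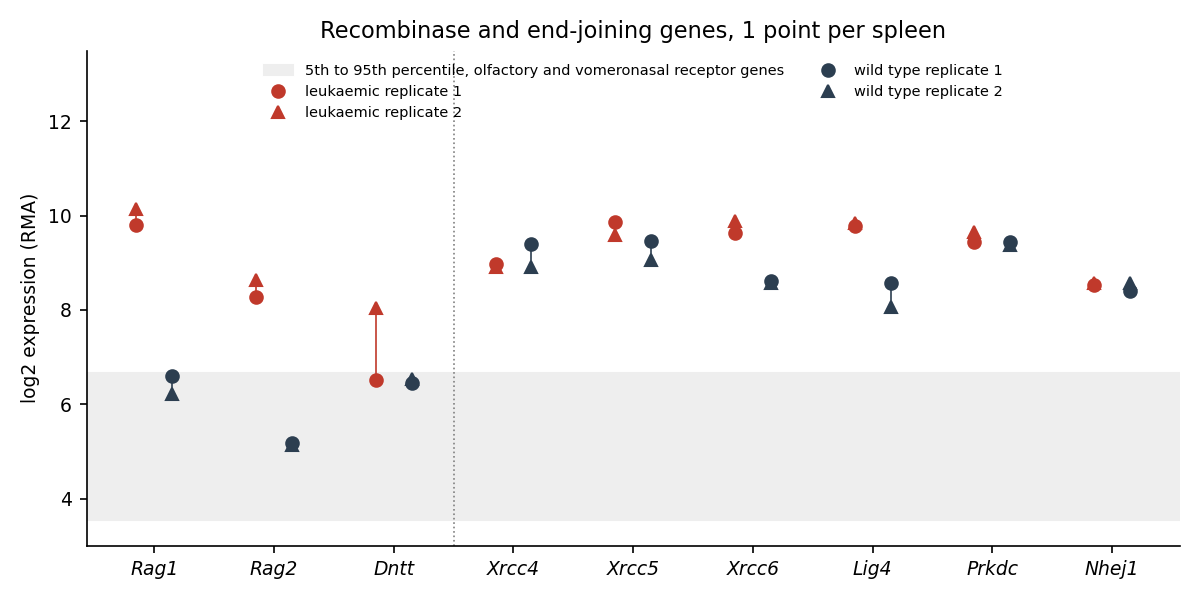
Log2 expression of the 9 measured genes in each spleen, with leukaemic spleens in red on the left of each gene and wild type spleens in dark blue on the right; circles are replicate 1 and triangles replicate 2. The grey band spans the 5th to 95th percentile of 1190 olfactory and vomeronasal receptor genes. Rag1 and Rag2 stand far apart between the groups, Lig4 and Xrcc6 less so, and Dntt leaves the band in leukaemic replicate 2 alone.

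Rag1, the catalytic subunit of the recombinase, had log2 values of 9.80 and 10.15 in leukaemic replicates 1 and 2, against 6.59 and 6.21 in wild type replicates 1 and 2. The groups did not overlap, and the gap between them was far wider than the spread within either. The log2 difference was 3.57 (95% interval 3.12 to 4.03, limma adjusted p = 0.00082), which ranked 6 among all rises. Rag2, the subunit that reads methylated histone H3 and steers the recombinase to active chromatin, was at 8.28 and 8.64 in leukaemic spleens, against 5.18 and 5.13 in wild type spleens. Its difference was 3.31 (95% interval 2.91 to 3.70, limma adjusted p = 0.00067), rank 10 among all rises. The 2 genes moved by nearly the same amount in each mouse: Rag1 stood 3.40 and 3.75 and Rag2 3.13 and 3.49 above the wild type mean in leukaemic replicates 1 and 2.

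The wild type values of these genes are not shown to be above background. Detection calls were not analysed here, so the signal of 1190 olfactory and vomeronasal receptor genes, which act in sensory neurons of the nose, served as a yardstick. Their means had a median of 4.93 and a 95th percentile of 6.67 over the 4 arrays. In wild type spleens Rag1 averaged 6.40 ± 0.26 and Rag2 5.15 ± 0.04 (SD, n = 2), above 89.6% and 56.9% of the receptor genes, and so inside their range. In leukaemic spleens Rag1 averaged 9.97 ± 0.25 and Rag2 8.46 ± 0.25 (SD, n = 2), above the 95th percentile. The differences of both genes are therefore not exact folds.

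Dntt was at 6.51 in leukaemic replicate 1 and at 8.05 in leukaemic replicate 2, against 6.46 and 6.54 in wild type spleens. The transcript thus stood out in the male mouse with the smaller leukaemic spleen and lay between the wild type replicates in the other. The group difference of 0.78 (95% interval -0.26 to 1.82, limma adjusted p = 0.39) did not pass. It was 1.55 without leukaemic replicate 1 and 0.01 without leukaemic replicate 2. In those fits 1 pooled variance served for all genes, so they do not measure the spread of Dntt itself. Only the value of leukaemic replicate 2 exceeded the 95th percentile of the receptor genes on its own array (6.65). Leukaemic replicate 2 minus replicate 1 was 1.54 for Dntt, and between -0.27 and 0.36 for the other 8 genes. An excess of at least 1.54 of leukaemic replicate 2 over replicate 1 was seen for 0.223% of all genes, and a difference of that size in either direction for 0.425%. With 1 mouse on each side, this difference between leukaemic mice has no test.

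**Figure D2:**
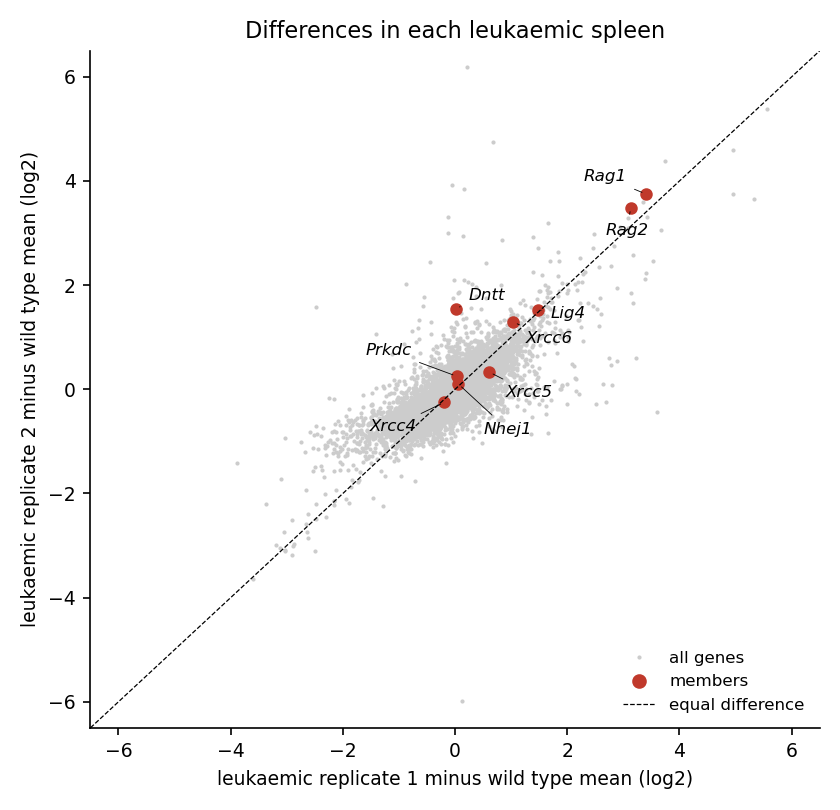
Each gene's log2 value in leukaemic replicate 1 (horizontal axis) and in leukaemic replicate 2 (vertical axis), both minus the wild type mean; grey points are all 19297 genes and red points the 9 measured genes. Rag1 and Rag2 lie near the dashed line of equal differences at the upper right, and Dntt lies off it, at 0.01 and 1.55.

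Markers of other cells also differed between the leukaemic mice. Outside the members, leukaemic replicate 2 lay above replicate 1 for 10 of 10 T cell markers (median difference 0.76), for 7 of 7 mature B cell markers (0.72), for 5 of 6 immature T cell markers (0.62) and for 4 of 5 lymphoid progenitor markers (0.51). It lay above for 3 of 11 precursor B cell markers (-0.11), and the median over all genes was -0.03. Immature T cells and lymphoid progenitors also use Dntt. The summed linear signal of the immature T cell markers was 2027 and 2825 in leukaemic spleens, against 5815 and 4320 in wild type spleens. Cd4, Cd8a, Cd8b1 and Themis of that list had differences of -1.46, -1.65, -1.32 and -1.83, and Cd1d1 one of -0.26. The T cell marker Cd3g differed by -1.78, so the sum does not separate immature T cells from T cells at large. All but Cd4 and Cd3g were named here after their values were seen. Ptcra, the pre-T cell receptor chain of that list, named here after its values were seen, was at 6.99 and 7.05 in leukaemic spleens, against 6.91 and 7.25 in wild type spleens. The 5 progenitor markers outside the members differed in both directions, with 1 lower, 0 higher and a median of -0.17. Their summed signal was 4554 and 7378 in leukaemic spleens, against 7393 and 5684 in wild type spleens, so in the mouse with high Dntt it lay just under the higher wild type value. Flt3, a receptor of early progenitors, fell to 7.24 and 7.70 in leukaemic spleens, against 8.89 and 8.71 in wild type spleens (limma adjusted p = 0.027). Il7r, the interleukin 7 receptor chain, was at 11.21 and 12.16 in leukaemic spleens, against 11.01 and 10.71 in wild type spleens (difference 0.83, limma adjusted p = 0.18). It was the brightest of the 5 in both leukaemic spleens and also stands in the precursor B cell list. The summed signal therefore does not separate progenitors from precursor B cells. The other differences were 0.44 for Cd34, -0.17 for Kit and -1.72 for Ly6d (limma adjusted p = 0.44, 0.74 and 0.064), and these 4 markers were named after their values were seen. In leukaemic replicate 2, 0 of the 6 immature T cell markers and 0 of the 5 progenitor markers lay under the 95th percentile of the receptor genes. The part of these cells and of age in the Dntt difference was not tested, and that of sex cannot be told apart from that of the 1 male mouse.

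Among the general joining factors 2 of the 6 measured rose and 4 did not pass, with a median difference of 0.30. Lig4, the ligase that closes the break, was at 9.79 and 9.84 in leukaemic spleens, against 8.57 and 8.06 in wild type spleens. Both leukaemic spleens lay above both wild type ones and almost coincided. The difference was 1.50 (95% interval 1.04 to 1.96, limma adjusted p = 0.020), or 2.83-fold. Xrcc6, the Ku70 subunit of the clamp, was at 9.64 and 9.89 in leukaemic spleens, against 8.61 and 8.58 in wild type spleens. The groups did not overlap, and the difference was 1.17 (95% interval 0.81 to 1.52, limma adjusted p = 0.021), or 2.24-fold. Both genes lay above the 95th percentile of the receptor genes in both groups.

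The obligate partners of these proteins showed smaller differences that did not pass. Xrcc5, which encodes the Ku80 subunit that pairs with Ku70, was at 9.87 and 9.60 in leukaemic spleens, against 9.47 and 9.06 in wild type spleens. Its arrays did not overlap between groups, by a narrow margin, and the difference of 0.47 had an unadjusted 95% interval of 0.02 to 0.92 (limma adjusted p = 0.22). Xrcc4, the scaffold that holds Lig4, was at 8.97 and 8.91 in leukaemic spleens, against 9.40 and 8.92 in wild type spleens. The leukaemic values matched the lower wild type one, and the difference was -0.22 (95% interval -0.67 to 0.23, limma adjusted p = 0.61). Whether Lig4 differs more than Xrcc4, or Xrcc6 more than Xrcc5, was not tested.

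Prkdc, the kinase that Ku recruits to DNA ends, was at 9.44 and 9.66 in leukaemic spleens, against 9.45 and 9.38 in wild type spleens. The groups overlapped, and the difference was 0.14 (95% interval -0.21 to 0.49, limma adjusted p = 0.71). Nhej1, which encodes XLF, was at 8.54 and 8.58 in leukaemic spleens, against 8.40 and 8.57 in wild type spleens. Its difference of 0.08 had a 95% interval of -0.26 to 0.42 (limma adjusted p = 0.85). These intervals hold 0 but leave room for modest changes: at their upper ends the differences of Prkdc and Nhej1 stay under those measured for Lig4 and Xrcc6.

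**Figure D3:**
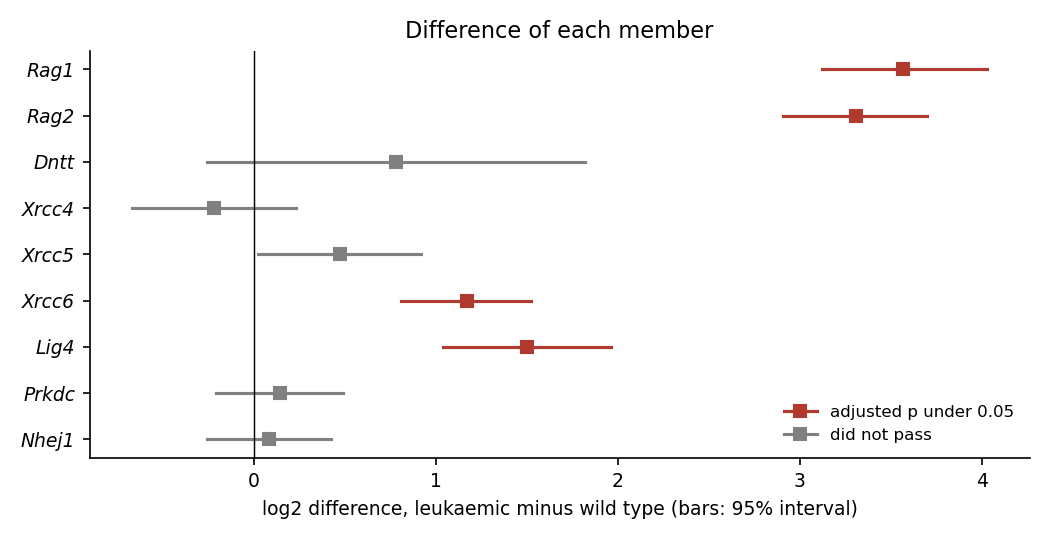
Log2 difference of each measured gene, leukaemic minus wild type (squares), with its 95% interval from limma's moderated fit (bars); genes with an adjusted p under 0.05 are red and the others grey. Rag1 and Rag2 lie above 3, Lig4 and Xrcc6 between 1 and 2, and the interval of Dntt is the widest.

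Set against each other, the lymphoid genes exceeded the joining factors, and Rag1 and Rag2 carried that contrast. With each gene set to its own mean over the 4 arrays, the mean of Rag1, Rag2 and Dntt minus the mean of the 6 joining factors was 0.66 and 1.37 in leukaemic spleens, against -1.07 and -0.96 in wild type spleens. The leukaemic minus wild type difference of that contrast was 2.03 on the log2 scale. It was 2.92 for Rag1 and Rag2 alone and 0.26 for Dntt alone, and Dntt minus the joining factors overlapped between groups, at -0.62 and 0.88 in leukaemic spleens, against -0.28 and 0.02 in wild type spleens. The joining factors themselves averaged 0.24 and 0.28 in leukaemic spleens, against -0.15 and -0.37 in wild type spleens. Since the genes were chosen with earlier results of these data known, these means have no test.

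With either wild type mouse left out, most or all of the member calls were lost, while the differences of the called genes kept their direction. Such fits have 1 residual degree of freedom, against 2 with all mice, so their calls are not comparable with those above. With leukaemic replicate 1 or 2 left out, the differences were 3.75 or 3.4 for Rag1 and 3.49 or 3.13 for Rag2. They were 1.53 or 1.47 for Lig4 and 1.29 or 1.04 for Xrcc6. With wild type replicate 2 left out, limma called 0 of the 9 genes and 0 genes in all, while 3141 genes had an unadjusted p under 0.05. The differences were then 3.39 for Rag1, 3.28 for Rag2, 1.24 for Lig4 and 1.15 for Xrcc6, each with an adjusted p between 0.12 and 0.15. That array also carried exocrine pancreas transcripts, whose summed linear signal over 12 genes was 50539 there, against 1507 and 1502 in leukaemic spleens and 1434 in wild type replicate 1. Without wild type replicate 1, 12 genes were called higher and 26 lower. Of the members Rag1 alone was called (difference 3.76), and the adjusted p was 0.051 for Rag2, 0.066 for Lig4 and 0.15 for Xrcc6.

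Of 27 other end-joining and break-response genes limma called 0 in either direction, and 12 had an unadjusted p under 0.05, against 20.7% of all genes. With 1.43% of all genes higher and 1.03% lower, a count of 0 among 27 is near the background. The 12 with an unadjusted p under 0.05 are a larger share than that of all genes. Both leukaemic arrays lay above both wild type arrays for 7 of 7 alternative end-joining genes, 8 of 12 signalling genes and 2 of 8 accessory genes. The share over all genes was 23.0%. They lay below for 0, 1 and 3 of these, against 26.2% of all genes. The lists were not tested as sets. In the list of accessory end-joining factors and family X polymerases, 0 of 8 measured genes passed, and the median difference was -0.05 (2 were higher with the trend and robust prior). Tdp1 and Tdp2, phosphodiesterases that clear blocked DNA ends, had the smallest p-values of the list, with differences of 0.84 and 0.79 (limma adjusted p = 0.060 and 0.062). Polm and Poll, the family X polymerases related to Dntt, had differences of -0.05 and -0.02 (limma adjusted p = 0.93 and 0.98). Polm was at 8.52 and 8.81 in leukaemic spleens, against 8.78 and 8.65 in wild type spleens, and Poll was at 7.68 in both leukaemic spleens, against 7.72 and 7.67 in wild type spleens. Neither had the excess that Dntt showed in leukaemic replicate 2. Paxx, a structural relative of Xrcc4 and Nhej1, had a difference of -0.15 (limma adjusted p = 0.69).

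Of 12 measured genes of break signalling and end protection 0 passed, with a median of 0.31. Rif1, which shields ends from resection, differed by 0.54 (limma adjusted p = 0.088), and Shld1, of the shieldin complex, by -0.53 (0.096). Alternative end joining, a back-up route, had 0 of 7 called and a median of 0.44. Its smallest p-values were those of the ligase Lig1 (difference 0.59) and the polymerase Polq (0.67), both with a limma adjusted p of 0.11.

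Homologous recombination, the repair route of dividing cells, had 3 of 13 genes higher, 0 lower and a median of 0.68. Rad54b and Rad54l, motor proteins of strand exchange, rose by 1.47 and 0.83 (limma adjusted p = 0.015 and 0.049), and Exo1, a resecting nuclease, rose by 1.11 (0.034). With quantile normalization Exo1 and Rad54l were not called (limma adjusted p = 0.059 and 0.078), nor was Rad54l with all probe sets fitted (0.059), and with the trend and robust prior 6 were called. DNA replication genes, which mark dividing cells, had 6 of 21 higher, 0 lower and a median of 0.58, led by Prim1 (1.13), Pole (1.09), Gins1 (1.01) and Cdc45 (0.87). Their count was 3 with quantile normalization, 3 without leukaemic replicate 2 and 10 with the trend and robust prior. Both leukaemic arrays lay above both wild type arrays for 18 of the 21 replication genes, against 23.0% of all genes. The groups overlapped for Mki67, Rrm2 and Cdt1 of that list, named after their values were seen (differences 0.17, 0.15 and 0.12). The median of the joining factors, 0.30, was below the medians of both the recombination and the replication list. The difference of Lig4 was above that of any replication gene measured (at most 1.13), without a test between genes. Xrcc6 (1.17) lay close to Prim1 (1.13), and their order turned in leukaemic replicate 1, where Xrcc6 was 1.04 and Prim1 1.26 above the wild type mean. The part of cell division in the joining factors was not tested.

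**Figure D4:**
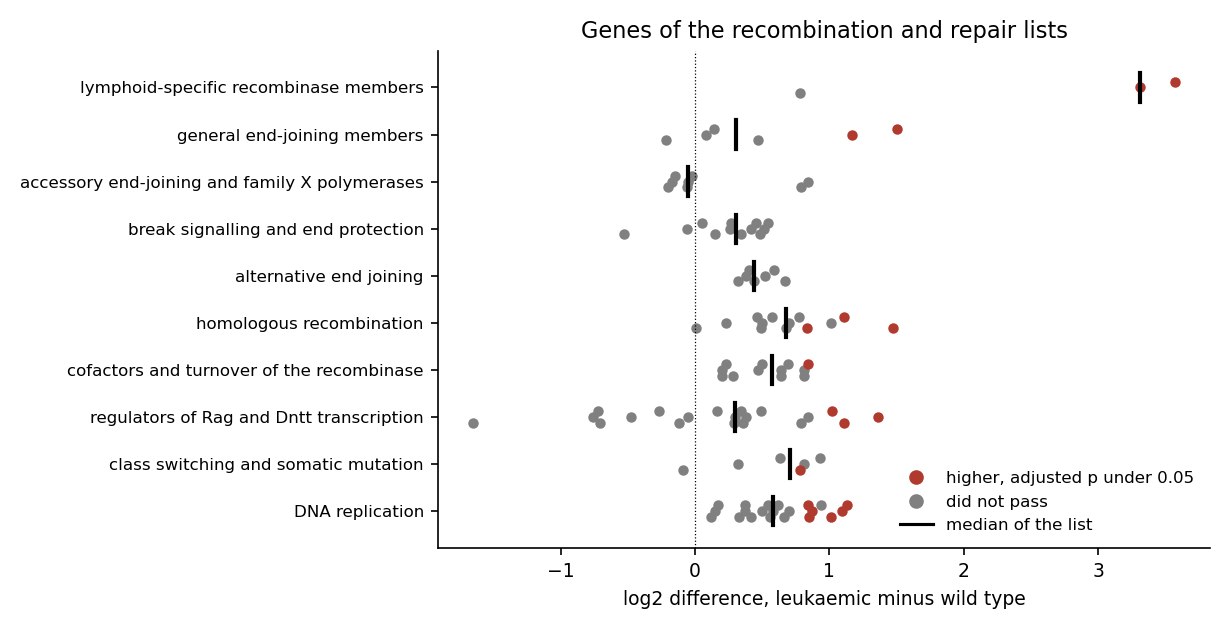
Log2 difference, leukaemic minus wild type, of each measured gene in 10 lists of recombination, repair and replication genes; red points passed at an adjusted p under 0.05, grey points did not, and black bars are list medians. The lymphoid genes reach furthest right, and no point is red in the 3 lists directly below the general joining factors.

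Genes that act on the recombinase moved less than Rag1 and Rag2. Among cofactors and turnover factors both leukaemic arrays lay above both wild type arrays for 12 of 12, against 23.0% of all genes. Of the 12, limma called 1 higher and 0 lower, and the median difference was 0.57. That gene was Cks1b, a cofactor of the Skp2 ubiquitin ligase through which Rag2 protein is removed in S phase (difference 0.84, limma adjusted p = 0.045, 0.059 with quantile normalization and 0.055 with all probe sets fitted). Among regulators linked to Rag and Dntt transcription 3 of 20 rose, 0 fell, and the median was 0.30. Myb was at 11.69 and 11.64 in leukaemic spleens, against 10.40 and 10.22 in wild type spleens, a difference of 1.36 (limma adjusted p = 0.012). Ebf1, a factor that specifies B cells, rose by 1.11 and Irf4 by 1.02 (limma adjusted p = 0.034 and 0.033), and with quantile normalization their adjusted p was 0.054 and 0.050. Both leukaemic arrays lay below both wild type arrays for 5 of the 20, near the 26.2% of all genes. They lay above for 11, against 23.0% of all genes. The widest difference of the list was that of Satb1, a chromatin organiser named here after its values were seen, at 8.69 and 10.30 in leukaemic spleens, against 11.27 and 11.02 in wild type spleens (difference -1.65, limma adjusted p = 0.11). The difference of Satb1 was -2.46 without leukaemic replicate 2 and -0.85 without leukaemic replicate 1. In the class switching and somatic mutation list, the later DNA alterations of mature B cells, 1 of 6 genes rose. This was the mismatch repair gene Msh6 (difference 0.78, limma adjusted p = 0.045, 0.053 with quantile normalization and 0.055 with all probe sets fitted).

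Precursor B cell markers moved with Rag1 and Rag2. Of 11 measured 9 rose and 0 fell, and their summed linear signal was 36962 and 36097 in leukaemic spleens, against 13631 and 12433 in wild type spleens. Igll1 and Vpreb1, which form the surrogate light chain, were at 13.02 and 12.85 and at 9.93 and 9.82 in leukaemic spleens, against 7.44 and 7.48 and 6.48 and 6.54 in wild type spleens. Enpep, the BP-1 antigen, was at 11.49 and 11.14 in leukaemic spleens, against 6.84 and 6.25 in wild type spleens. Mature B cell markers had 2 of 7 lower and 0 higher, with a median of -1.09. For all 7, both leukaemic arrays lay below both wild type arrays, against 26.2% of all genes. The 2 called were Cr2, at 9.98 and 10.58 in leukaemic spleens, against 12.36 and 11.93 in wild type spleens, and Cd22, with a difference of -0.84. T cell markers, from the other lineage that uses the recombinase, had 6 of 10 lower and 0 higher, with a summed linear signal of 3119 and 5497 in leukaemic spleens, against 13444 and 10570 in wild type spleens. All 10 had both leukaemic arrays below both wild type arrays, against 26.2% of all genes. The number called was 1 with quantile normalization and 3 with all probe sets fitted. Cd3g, Cd3e and Cd3d had differences of -1.78, -1.70 and -1.57, and of the 6 immature T cell markers outside the members Cd4 alone passed (-1.46, limma adjusted p = 0.032). The part of the cell makeup in the rise of Rag1 and Rag2 was not tested.

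The genes whose profiles over the 4 arrays lay closest to those of Rag1 and Rag2 were the same apart from the pair itself. Likeness was the Euclidean distance between profiles, each gene set to its own mean. Genes picked this way have group differences close to that of the member, so their direction, size and calls are no separate result. Since Rag1 and Rag2 lay close to each other, shared neighbours follow in large part from that as well. Rag2 was nearest to Rag1 (distance 0.35), followed by Mei4 (0.47), Vpreb1 and Gfra1 (0.50 each) and Ptgr1 (0.54). Nearest to Rag2 were Mei4 (0.16), Gfra1 (0.32), Vpreb1 (0.34), Rag1 (0.35) and Ptgr1 (0.36). All of these were higher in both leukaemic spleens, with log2 differences from 3.09 for Ptgr1 to 3.57 for Rag1. Nearest to Dntt were Pcdh11x (0.11), Fam78b (0.20), Heyl (0.22), Gas7 (0.23) and Cfap300 (0.24). Heyl, a Hairy-related repressor gene, was at 7.57 and 8.84 in leukaemic spleens, against 7.50 and 7.60 in wild type spleens. None of these 5 passed the test, and each had its highest value in leukaemic replicate 2. For Cfap300 that value, 6.53, lay under the 95th percentile of the receptor genes on that array (6.65).

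Genes beside the Rag pair on chromosome 2 had differences under 1 and were not called. In the gene order of GRCm38.p6, Iftap lies next to Rag2 and Traf6 next to Rag1. Iftap, also known as NWC, was at 5.95 and 6.47 in leukaemic spleens, against 5.89 and 5.93 in wild type spleens, all under the 95th percentile of the receptor genes. Traf6, an adaptor of innate immune receptors, was at 10.29 and 10.39 in leukaemic spleens, against 9.96 and 9.77 in wild type spleens (difference 0.47, limma adjusted p = 0.13). Prr5l, the next gene, differed by -0.87 (limma adjusted p = 0.063), and Api5, Lrrc4c and Commd9 by 0.53, -0.41 and 0.05 (adjusted p from 0.18 to 0.91).

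**Figure D5:**
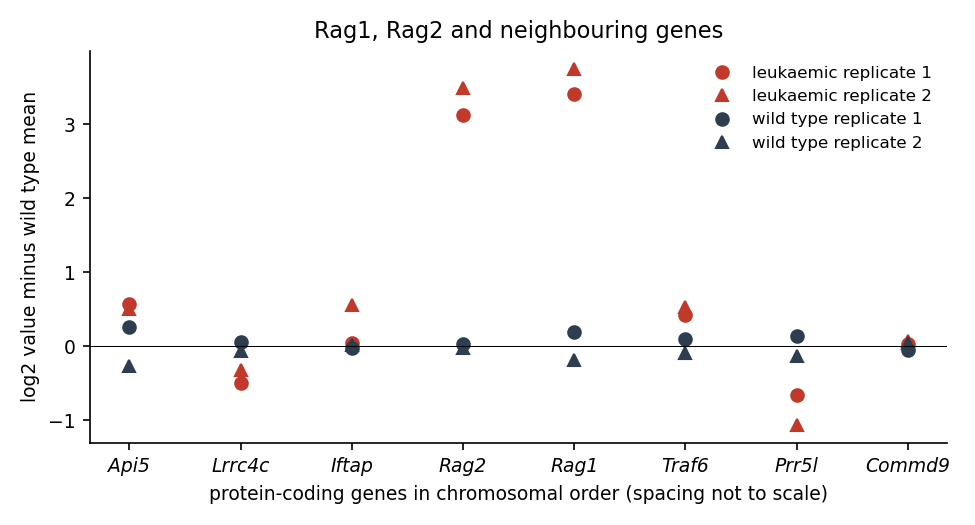
Log2 value of each spleen minus the wild type mean, for Rag1, Rag2 and the 3 protein-coding genes on either side, in chromosomal order with spacing not to scale; leukaemic spleens are red, wild type spleens dark blue, circles replicate 1 and triangles replicate 2. Rag2 and Rag1 lie above 3 in both leukaemic spleens, and none of the 6 neighbours rises to 1. Prr5l lies at -1.06 in leukaemic replicate 2.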

How the data were processed

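Values are log2 expression per probe set, as deposited by the authors; per the submitters' processing notes R 2.15.0, RMA (background correction, normalization between arrays and a summary per probe set) and limma 3.12.1 were used, with settings not given in the sources used here. RMA compresses differences of dim genes. The number of arrays limits the precision: no exact permutation test of 2 against 2 mice can go below p = 0.333.

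Probe sets were named from the platform annotation where it gave 1 symbol (20729 of 23309), and the brightest probe set, by its 4-array mean, stood for a gene. The groups were set against each other in limma 3.58.1 under R 4.3.3 (functions lmFit and eBayes, no covariate, no filter), with Benjamini-Hochberg adjustment over 19297 genes and intervals at the 95% level. Leukaemic replicate 2 was the only male, so a sex term would fit that mouse exactly and leave the estimates of the fit without it. The steps were tested on simulated data. Tables were handled in Python 3.11.15 with pandas 2.3.3.

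The members, the 14 lists set beside them and the tests were chosen with earlier results of these data known. Genes named are all members, called list members (at most 4 each way, 3 for markers, or the 2 of smallest p), the relatives Polm, Poll and Paxx, the 5 nearest profiles of each lymphoid gene and the neighbours of the Rag pair. Promoter windows come from RefSeq and matched 9 of the 10 members. Alternatives covered the scaling, dim genes, the variance prior, the choice of probe set, the rows fitted, the replicate number as a block and each mouse left out.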

Additional observations from a re-analysis of the deposited data

How the results depend on the processing

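Rag1, Lig4 and Xrcc6 kept their direction and their call under 7 of 7 alternatives that used all 4 arrays, and Rag2 under the 6 that tested it; leaving out the dimmest genes removed Rag2 and Dntt from the fit, with 3 members called. Over the fits without 1 mouse, the number of members called higher ran from 0 to 5 and called lower stayed at 0. The difference ran from 3.39 to 3.76 for Rag1, 3.13 to 3.49 for Rag2, 1.24 to 1.75 for Lig4, 1.04 to 1.29 for Xrcc6 and 0.01 to 1.55 for Dntt. The contrast of lymphoid and joining genes ran from 1.68 to 2.39. All genes called higher and lower numbered 276 and 199, and 168 and 93 with quantile normalization, 509 and 456 with the trend and robust prior, 217 and 121 with all probe sets fitted, 785 and 908 with the replicate number as a block, and 0 to 450 and 0 to 593 over the fits without 1 mouse. Those fits have 1 residual degree of freedom, with a prior estimated at 2.79 degrees of freedom when a wild type mouse is left out and at infinity when a leukaemic mouse is, so their counts are not comparable. Median centring gave 350 and 147 (70.4% higher, against 58.1%). The replicate numbers are not shown to pair mice: the deviations of same-numbered mice correlated at -0.087 over genes, and the block changed no call among the members. With the block the replication genes called higher numbered 10, the regulators called lower 4, and the genes called higher 2 in the accessory and 1 in the alternative end-joining list. T cell markers called lower numbered 4 with median centring. The mean level of Rag1, Rag2 and Dntt in wild type spleen lay within the range of the olfactory and vomeronasal receptor genes, which limits how exact their differences are.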
